A study of Mus musculus with 4 samples.

Results

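The mouse genes whose symbols begin with Gpr and a number were examined in sciatic nerves of Zeb2 cKO and control mice at postnatal day 7. The tables list 96 such genes of 21965 in all, selected by symbol alone, and 37 of them were at 1 FPKM or more in either library and are described below. FPKM is a count of sequenced fragments corrected for transcript length and library size, so it can be compared between genes. The Gpr symbols are those of the mm9 annotation, under which adhesion receptors, orphan receptors and several membrane proteins that are not classical receptors share a prefix. By accession, 8 of the 37 have another symbol in RefSeq today, among them Gpr126 (Adgrg6), Gpr56 (Adgrg1), Gpr124 (Adgra2) and Gpr125 (Adgra3).

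The Zeb2 cKO mice are conditional knockouts of Zeb2, a zinc finger transcription factor, and the controls are labelled only as control. Both groups are of mixed strain background. The labels name neither the Cre line nor the deleted exons nor the control genotype, and each sample is RNA of pooled nerves, so no value belongs to a single animal. The labels describe 2 samples per group, and the tables used here hold 1 library of each group. No replicate error exists for any value below, no test between the conditions was possible, and genes are described by size.

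G protein-coupled receptors cross the membrane in a bundle of helices and pass signals from ligands outside the cell to heterotrimeric G proteins inside it, many of them through cyclic AMP. Adhesion receptors of this superfamily carry long extracellular regions that bind matrix or neighbouring cells. In the peripheral nerve the best known is Gpr126, which Schwann cells of mouse and zebrafish need to raise cyclic AMP and begin myelination. Orphan receptors are those for which no ligand is firmly established.

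The Zeb2 cKO library held an estimated 20259411 reads and the control library 29732012. Of these, 37961 in Zeb2 cKO and 44080 in control fell on Gpr genes. Counting intervals (95%) quoted below cover only the error of counting these estimated reads and say nothing of variation among animals or pools. Zeb2 itself was at 19.5 FPKM in Zeb2 cKO and 34.4 FPKM in control, a ratio of 0.568 with a counting interval from 0.548 up to 0.588, which is the direction of the labels. Sox10, a transcription factor of the Schwann cell lineage, was at 69.2 FPKM in Zeb2 cKO and 139 FPKM in control, and S100b, another marker of that lineage, was at 42.5 FPKM in Zeb2 cKO and 188 FPKM in control. Of 7 measured markers of myelinating Schwann cells all 7 were lower, and of 10 skeletal muscle markers all 10 were lower. Melanocyte markers were lower in 3 of 4 measured. Fibroblast markers were 2-fold or more higher in 6 of 9, perineurial in 5 of 6, adipocyte in 4 of 6, mast cell in 2 of 5 and pericyte and smooth muscle in 2 of 8. Of all genes at 1 FPKM or more in either library, 8.66% were that much higher and 6.28% lower. With the Zeb2 cKO values divided by 1.16, the median FPKM ratio of all genes, fewer of these markers were that much higher. Median log2 ratios were then 0.91 for fibroblast, 1.51 for perineurial and 0.93 for adipocyte markers. The mast cell genes Mcpt4 and Cpa3 (0.87 each) and the pericyte genes Cspg4 (0.83) and Rgs5 (0.81) were then short of 2-fold. The part of these differences in the values of the Gpr genes was not tested. In bulk nerve, fewer cells of a type and less RNA per cell cannot be told apart.

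Of the 37 Gpr genes, 5 lay past 2-fold on the higher side in Zeb2 cKO (Gpr85, Gpr162, Gpr135, Gpr125 and Gpr37l1) and 4 on the lower side (Gpr137b, Gpr137b-ps, Gpr137c and Gpr176). The ratio behind each count was log2((FPKM Zeb2 cKO + 1)/(FPKM control + 1)). Over all 13274 genes that passed the same filter, 8.66% were that much higher and 6.28% that much lower, 14.9% in either direction. Among the Gpr genes the shares were 13.5%, 10.8% and 24.3%, each a matter of a few genes. The median log2 ratio of the 37 was 0.15, against 0.19 for all genes, and the quartiles were -0.35 and 0.49, against -0.10 and 0.49 for all genes. Of the 37, 31 passed 1 FPKM in both libraries. The other 6 passed through a single library, Gpr85 and Gpr30 through Zeb2 cKO and Gpr176, Gpr63, Gpr183 and Gpr17 through control, so they had to differ to some extent. With the Zeb2 cKO values divided by 1.16, the median FPKM ratio of all genes, 2 were higher and 4 lower, against 6.02% and 7.56% of all genes.

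**Figure D1:**
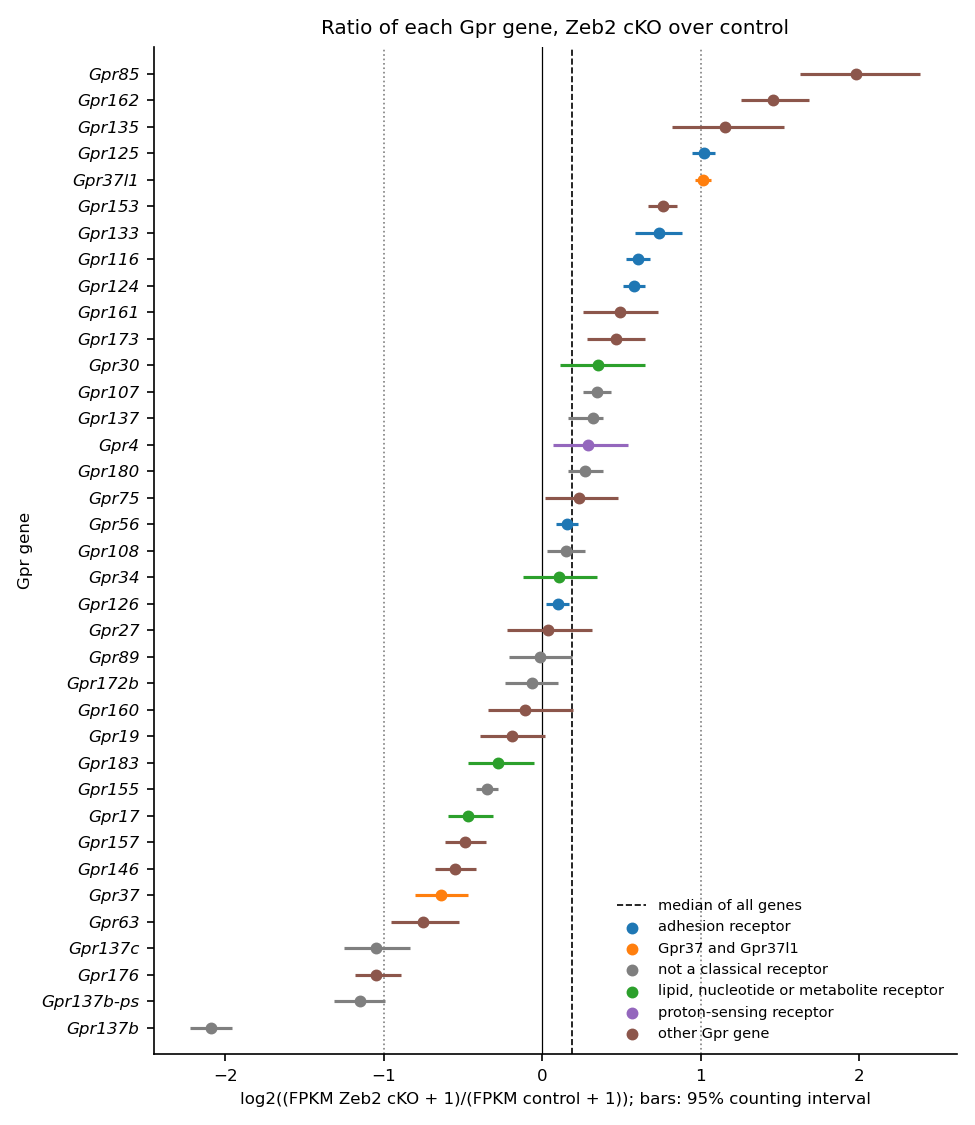
Log2 ratio of Zeb2 cKO over control (FPKM + 1 in each, 1 library per group) for the 37 Gpr genes, coloured by group, with bars for the 95% counting interval, dotted lines at 2-fold and a dashed line at the median of all genes (0.19). Gpr85 is at the top with 1.98 and Gpr137b at the bottom with -2.09.

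Gpr37l1 was the most abundant Gpr gene in both libraries. It encodes an orphan receptor of glia, related to the endothelin receptors and reported as a receptor for prosaposin, and it lies on chromosome 1 (137056827 to 137064258, mm9, as are all gene positions). It was at 143 FPKM in Zeb2 cKO and 70.3 FPKM in control, 2.04-fold higher (counting interval 1.97 to 2.11). By level it stood above 96.9% of the 13274 genes that passed the filter in the Zeb2 cKO library and above 92.9% of them in the control library. It made up 30.1% of the summed FPKM of the 96 Gpr genes in the Zeb2 cKO library and 19.1% in the control library. That sum was 476 FPKM in Zeb2 cKO and 368 FPKM in control, and without Gpr37l1 it was 332 FPKM in Zeb2 cKO and 298 FPKM in control. After rescaling to the median gene the log2 ratio of Gpr37l1 was 0.80, short of 2-fold.

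Gpr37, the closest relative of Gpr37l1 and a receptor known from oligodendrocytes, was lower. It was at 2.97 FPKM in Zeb2 cKO and 5.18 FPKM in control, 1.74-fold lower (counting interval 1.49 to 2.04), within 2-fold. The FPKM of Gpr37l1 was therefore 48.2 times that of Gpr37 in the Zeb2 cKO library and 13.6 times in the control library. Psap, which encodes the proposed ligand precursor prosaposin, was abundant and near equal, at 436 FPKM in Zeb2 cKO and 420 FPKM in control.

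Among the adhesion receptors, 6 of 16 Gpr-named genes passed 1 FPKM and 1 of them was 2-fold or more higher, against 8.66% of all genes. All 6 had ratios above 0 as deposited, with a median log2 ratio of 0.59 and a range of 0.10 to 1.02. Ratios above 0 were common over all genes too, whose median was 0.19 and lower quartile -0.10. The FPKM of the 6 receptors summed to 120 in the Zeb2 cKO library and 83.7 in the control library. After rescaling, Gpr126 and Gpr56 turned to -0.11 and -0.05 and the median was 0.38. Gpr126 (chromosome 10, 14122391 to 14264842) was at 15.1 FPKM in Zeb2 cKO and 14.0 FPKM in control, a fold of 1.08 (counting interval 1.02 to 1.13). Its level in the whole nerve was thus near equal in the libraries. All 7 measured markers of myelinating Schwann cells were lower, and which cells gave the Gpr126 reads was not tested. Gpr56 (chromosome 8, 97501009 to 97538108), which binds type III collagen and takes part in sorting of axons by Schwann cells, was at 32.7 FPKM in Zeb2 cKO and 29.2 FPKM in control, a fold of 1.12. The level of Gpr56 was 2.17 times that of Gpr126 in the Zeb2 cKO library and 2.08 times in the control library.

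Genes for the matrix and surface ligands of these receptors differed in both directions. Of 10 measured genes for ligands of Gpr126, Gpr56 and Gpr37, 1 was 2-fold or more higher and 0 lower. The shares of all genes were 8.66% and 6.28%. The ligand genes had a median log2 ratio of 0.14, which became -0.08 after rescaling. The higher gene was Tgm2, tissue transglutaminase, at 33.2 FPKM in Zeb2 cKO and 15.0 FPKM in control (log2 ratio 1.09, and 0.88 after rescaling, short of 2-fold). Lamb2, a laminin chain, had the next largest log2 ratio, 0.88, and another chain, Lamb1, was at -0.41. Col4a1, a chain of the type IV collagen that Gpr126 binds, was at 262 FPKM in Zeb2 cKO and 225 FPKM in control. Lama2, the laminin alpha chain of the Schwann cell basal lamina, was at 49.2 FPKM in Zeb2 cKO and 72.5 FPKM in control. Prnp, the prion protein, was at 146 FPKM in Zeb2 cKO and 143 FPKM in control. Col3a1, a fibroblast collagen that Gpr56 binds, was at 2874 FPKM in Zeb2 cKO and 1692 FPKM in control. Fibroblast markers summed to 6540 FPKM in Zeb2 cKO and 4010 FPKM in control. Most of that sum was Col1a1 and Col1a2, at 2121 and 2275 FPKM in Zeb2 cKO and 1576 and 1580 FPKM in control. The part of fibroblasts in the value of Col3a1 was not tested.

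Gpr125, an adhesion receptor of the same subfamily as Gpr124, was the adhesion gene past 2-fold. It lies on chromosome 5 (50351190 to 50450235) and was at 31.2 FPKM in Zeb2 cKO and 14.9 FPKM in control, 2.10-fold higher (counting interval 1.99 to 2.21), with a log2 ratio of 0.81 after rescaling. Gpr124, which acts with Reck in Wnt7 signalling to brain endothelium, was at 23.8 FPKM in Zeb2 cKO and 15.6 FPKM in control. Its ratio was smaller, so Gpr125 was 1.31 times as abundant as Gpr124 in the Zeb2 cKO library and 0.953 times in the control library. Gpr133, a receptor that couples to the stimulatory G protein, was at 4.76 FPKM in Zeb2 cKO and 2.46 FPKM in control, a fold of 1.93, within 2-fold. Gpr116, known from lung epithelium and endothelium, was at 11.9 FPKM in Zeb2 cKO and 7.52 FPKM in control, a fold of 1.59. Endothelial markers were higher too as deposited, with 0 of 11 past 2-fold, a median log2 ratio of 0.66 and a summed level of 350 FPKM in Zeb2 cKO and 234 FPKM in control. Their part in the values of Gpr116 and Gpr124 was not tested.

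Adhesion receptors under other names gave a wider range. Of 13 listed, 11 were measured, and 4 were 2-fold or more higher and 0 lower, against 8.66% and 6.28% of all genes. Their median log2 ratio was 0.77. Lphn3, a latrophilin, was at 19.0 FPKM in Zeb2 cKO and 3.75 FPKM in control (5.07-fold higher). Bai3, a receptor for C1q-like proteins at synapses, was at 3.58 FPKM in Zeb2 cKO and 0.776 FPKM in control (4.62-fold higher). The remaining higher members were Celsr1 and Cd97, with log2 ratios of 1.37 and 1.11. Celsr2, a relative of Celsr1, was lower within 2-fold, at 7.01 FPKM in Zeb2 cKO and 13.9 FPKM in control (log2 ratio -0.89). After rescaling Celsr2 was at -1.09, past 2-fold, and Cd97 at 0.90, short of it, and the median of the list was 0.57.

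Orphan receptors held the largest ratios upward. Gpr85 (chromosome 6, 13785074 to 13789848) is a member of the SREB family, receptors highly conserved among vertebrates and expressed mainly in brain. It was at 4.67 FPKM in Zeb2 cKO and 0.437 FPKM in control, 10.7-fold higher. The counting interval runs from 7.86 to 14.9, since the values rest on about 336 reads in Zeb2 cKO and 46 reads in control. The other SREB genes did not move with it by that size. Gpr27 was at 5.11 FPKM in Zeb2 cKO and 4.94 FPKM in control, and its log2 ratio of 0.04 turned to -0.14 after rescaling. Gpr173 was at 4.17 FPKM in Zeb2 cKO and 2.75 FPKM in control. Gpr85 was thus 0.915 times as abundant as Gpr27 in the Zeb2 cKO library and 0.0884 times in the control library. Neuronal markers, set beside Gpr85 because of its known site of expression, summed to 22.3 FPKM in Zeb2 cKO and 32.6 FPKM in control. None of the 3 measured was 2-fold apart. Most of the sum was Uchl1, at 15.7 FPKM in Zeb2 cKO and 24.1 FPKM in control. Tubb3 was lower too, and Nefl was near equal, at 2.50 FPKM in Zeb2 cKO and 2.38 FPKM in control. The cell source of Gpr85 was not tested.

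Gpr162 (chromosome 6, 124808463 to 124813935), an orphan receptor, was at 7.46 FPKM in Zeb2 cKO and 2.08 FPKM in control, 3.59-fold higher (counting interval 3.05 to 4.27). Its closest relative Gpr153 was more abundant and within 2-fold, at 21.4 FPKM in Zeb2 cKO and 12.2 FPKM in control, a fold of 1.75. Gpr135 (chromosome 12, 73170605 to 73171978), another orphan receptor, was at 4.27 FPKM in Zeb2 cKO and 1.37 FPKM in control, 3.13-fold higher (counting interval 2.33 to 4.25). After rescaling Gpr85 and Gpr162 remained 2-fold or more higher, with log2 ratios of 1.80 and 1.27, and Gpr135 was at 0.98.

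Promoter sequence is shown for the higher genes that have an entry in the RefSeq promoter table of GRCm38.p6, to let the region before each start site be read beside these ratios. Each is the 250 bases before the start, on the strand of the gene (minus for all 4), at chr6:13839943-13840192 for Gpr85, chr12:72071102-72071351 for Gpr135, chr5:50058997-50059246 for Gpr125 and chr1:135167682-135167931 for Gpr37l1. Capitals mark CACCT on either strand (AGGTG on the printed one), the short core that Zeb proteins recognise, searched with overlaps allowed.
Gpr85: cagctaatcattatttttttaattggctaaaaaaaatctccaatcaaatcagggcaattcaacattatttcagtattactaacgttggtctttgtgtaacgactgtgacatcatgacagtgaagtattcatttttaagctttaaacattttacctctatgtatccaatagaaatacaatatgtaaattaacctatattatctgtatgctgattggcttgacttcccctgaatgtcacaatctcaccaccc
Gpr135: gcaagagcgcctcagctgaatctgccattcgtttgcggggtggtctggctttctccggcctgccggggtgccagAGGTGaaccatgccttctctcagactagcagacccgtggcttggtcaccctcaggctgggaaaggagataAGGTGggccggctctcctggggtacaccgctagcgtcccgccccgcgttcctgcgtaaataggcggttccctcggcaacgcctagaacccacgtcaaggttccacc
Gpr125: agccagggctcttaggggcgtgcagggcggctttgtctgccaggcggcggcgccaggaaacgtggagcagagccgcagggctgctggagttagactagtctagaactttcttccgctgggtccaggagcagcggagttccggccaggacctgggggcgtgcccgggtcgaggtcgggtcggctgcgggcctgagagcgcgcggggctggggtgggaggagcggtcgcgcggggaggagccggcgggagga
Gpr37l1: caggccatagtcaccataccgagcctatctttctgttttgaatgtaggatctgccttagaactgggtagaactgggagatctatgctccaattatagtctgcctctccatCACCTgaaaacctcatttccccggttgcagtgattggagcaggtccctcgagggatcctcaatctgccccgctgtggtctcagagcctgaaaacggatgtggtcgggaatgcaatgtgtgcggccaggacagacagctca

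CACCT was found at 2 places before Gpr135, at positions -176 and -106 counted back from -1 at the base before the start, and at 1 place before Gpr37l1, at -140. It was not found in these windows of Gpr85 and Gpr125. The longer CACCTG was found only at the Gpr37l1 place among these 4. Over all 32851 promoter entries of the same length, 46.0% held CACCT and 17.2% held CACCTG. Of the 42 entries that belong to 28 of the 37 Gpr genes, 21 held CACCT and 12 held CACCTG. The cyclic AMP response element TGACGTCA was in 0 of these 42 and in 1.55% of all entries. Base composition differed widely, at 32.0% G and C for Gpr85 and 71.6% for Gpr125.

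The lower genes were led by the Gpr137 family, lysosomal membrane proteins that are not classical receptors and of which Gpr137b is known to act on mTORC1 at the lysosome. Gpr137b (chromosome 13, 13449888 to 13485891) was at 5.36 FPKM in Zeb2 cKO and 26.1 FPKM in control, 4.86-fold lower (counting interval 4.37 to 5.42). Gpr137b-ps (chromosome 13, 12706333 to 12742662), whose symbol marks it as a pseudogene of Gpr137b, was at 3.46 FPKM in Zeb2 cKO and 8.91 FPKM in control, 2.58-fold lower. Both copies were lower, but their separate values are uncertain, since 29.4% of the 50-base words of Gpr137b-ps transcripts in GENCODE M21 also occur in those of Gpr137b and reads can be split between them. The summed level of both copies was 3.97-fold lower (counting interval 3.65 to 4.33). Gpr137c (chromosome 14, 45839392 to 45900651) was at 1.07 FPKM in Zeb2 cKO and 3.27 FPKM in control, 3.07-fold lower (counting interval 2.35 to 4.13).

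Gpr137 itself, the family member on chromosome 19, was not lower. It was at 28.7 FPKM in Zeb2 cKO and 22.7 FPKM in control (log2 ratio 0.32, and 0.11 after rescaling), and its locus overlaps Bad. The level of Gpr137 was 5.36 times that of Gpr137b in the Zeb2 cKO library and 0.872 times in the control library. Gpr155, a lysosomal protein known as a cholesterol sensor, was at 20.8 FPKM in Zeb2 cKO and 26.7 FPKM in control. The remaining members of this kind were within 2-fold. Gpr107 and Gpr108, proteins of the Golgi, had log2 ratios of 0.35 and 0.15, and that of Gpr108 turned to -0.05 after rescaling. Gpr89, a Golgi pH regulator, Gpr172b, a riboflavin transporter now named Slc52a2, and Gpr180 had log2 ratios of -0.02, -0.06 and 0.27. Of these 10 genes that are not classical receptors, all 10 passed 1 FPKM, 3 were 2-fold or more lower and 0 higher. Of all genes, 6.28% were that much lower and 8.66% that much higher. The 3 include Gpr137b and Gpr137b-ps, which can share reads. The median log2 ratio of the 10 was -0.04.

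Gpr176 (chromosome 2, 118102834 to 118199155), an orphan receptor known from the circadian clock of the mouse brain, was the lower gene outside that family. It was at 0.378 FPKM in Zeb2 cKO and 1.85 FPKM in control, 4.91-fold lower (counting interval 3.45 to 7.15), on about 36 reads in Zeb2 cKO and 259 reads in control. Gpr63, an orphan receptor, was at 0.677 FPKM in Zeb2 cKO and 1.83 FPKM in control and stayed within 2-fold with the pseudocount. Promoter entries of GRCm38.p6 are shown for the lower genes that have one, again 250 bases on the strand of the gene with CACCT in capitals, at chr14:45219467-45219716 (plus) for Gpr137c and chr2:118373420-118373669 (minus) for Gpr176.
Gpr137c: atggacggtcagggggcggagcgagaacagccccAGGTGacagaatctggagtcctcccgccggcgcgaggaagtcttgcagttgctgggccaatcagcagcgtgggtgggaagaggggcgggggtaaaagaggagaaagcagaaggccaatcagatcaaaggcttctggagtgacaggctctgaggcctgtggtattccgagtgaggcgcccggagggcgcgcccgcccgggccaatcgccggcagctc
Gpr176: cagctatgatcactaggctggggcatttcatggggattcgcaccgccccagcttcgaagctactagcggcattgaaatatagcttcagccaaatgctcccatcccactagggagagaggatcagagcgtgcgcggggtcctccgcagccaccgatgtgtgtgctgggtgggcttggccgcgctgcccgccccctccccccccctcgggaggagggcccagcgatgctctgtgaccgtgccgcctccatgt

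The window of Gpr137c held CACCT once, as part of a CACCTG on the other strand that takes up the bases from -217 on, and the window of Gpr176 held none. Among the 6 printed windows 3 held CACCT, 2 of them of higher genes and 1 of a lower gene, against 46.0% of all entries.

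**Figure D2:**
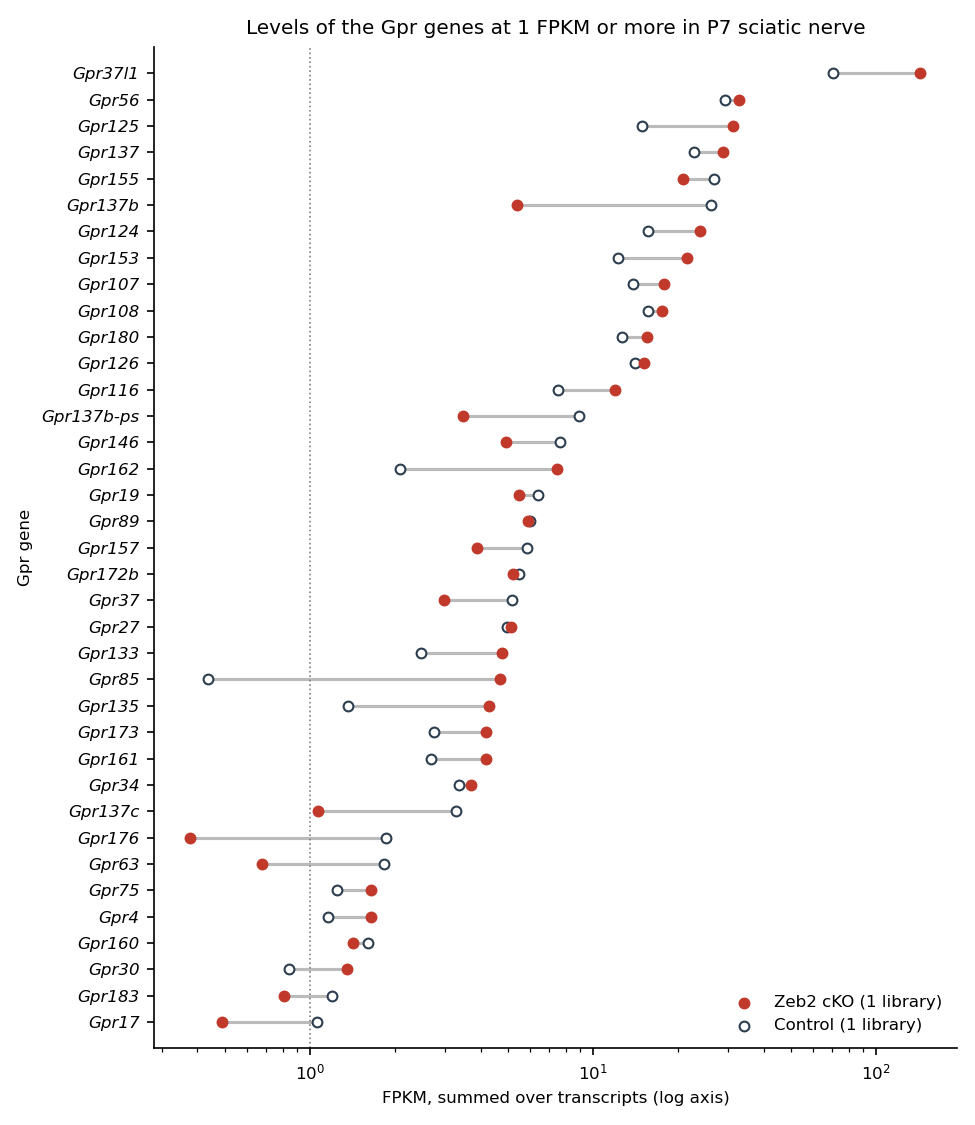
FPKM (log axis) of the 37 Gpr genes in the Zeb2 cKO library (filled) and the control library (open), ordered by the higher of both levels, with a dotted line at 1 FPKM. Gpr37l1 is the highest in both libraries, and long grey lines mark Gpr85 among the higher and Gpr137b and Gpr176 among the lower genes.

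By level the Gpr genes were modest. Their median was 4.91 FPKM in Zeb2 cKO and 5.48 FPKM in control, against 9.38 FPKM in Zeb2 cKO and 8.19 FPKM in control for all genes that passed the filter. Of the 37, 13 reached 10 FPKM in either library, 8 reached 20 FPKM and Gpr37l1 alone reached 100 FPKM. The order near the top differed between the libraries, with Gpr56, Gpr125 and Gpr137 after Gpr37l1 in Zeb2 cKO, and Gpr56, Gpr155 and Gpr137b after it in control. Neighbours in this order, such as Gpr56 at 32.7 and Gpr125 at 31.2 FPKM in Zeb2 cKO, cannot be ranked without replicates.

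Receptors for lipids, nucleotides and metabolites were low, and 4 of 15 passed 1 FPKM, with none past 2-fold on the pseudocount scale. Gpr34, a receptor for lysophosphatidylserine on macrophages and microglia, was at 3.70 FPKM in Zeb2 cKO and 3.37 FPKM in control, and its log2 ratio of 0.11 turned to -0.06 after rescaling. Gpr183, a receptor for oxysterols on immune cells, was at 0.806 FPKM in Zeb2 cKO and 1.19 FPKM in control. Macrophage markers were near equal, with 0 of 12 past 2-fold, a median log2 ratio of -0.02 and a summed level of 165 FPKM in Zeb2 cKO and 173 FPKM in control. Of 8 T and B cell markers 1 was measured. Gpr17, known from oligodendrocyte precursors, was at 0.488 FPKM in Zeb2 cKO and 1.06 FPKM in control. Its plain FPKM ratio was 2.16-fold lower (counting interval 1.61 to 2.91), within 2-fold only with the pseudocount. The locus of Gpr17 overlaps Lims2, at 9.28 FPKM in Zeb2 cKO and 24.5 FPKM in control. Gpr30, an estrogen receptor at the membrane, was at 1.35 FPKM in Zeb2 cKO and 0.842 FPKM in control. The loci of Gpr34, Gpr183 and Gpr30 overlap those of Cask, Ubac2 and 3110082I17Rik, counted from start to end with introns and either strand. Whether these genes share exon sequence, and so reads, was not tested.

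Of the proton-sensing receptors, 1 of 4 passed 1 FPKM. This was Gpr4, an endothelial receptor, at 1.63 FPKM in Zeb2 cKO and 1.16 FPKM in control. Gpr65, its relative on immune cells, was at 0.771 FPKM in Zeb2 cKO and 0.793 FPKM in control. The remaining described genes were within 2-fold. Gpr161, a receptor of primary cilia that restrains hedgehog signalling, was at 4.17 FPKM in Zeb2 cKO and 2.67 FPKM in control. Gpr146, whose locus also overlaps 3110082I17Rik, was at 4.91 FPKM in Zeb2 cKO and 7.66 FPKM in control. Gpr157 was at 3.89 FPKM in Zeb2 cKO and 5.84 FPKM in control. Gpr75, Gpr160 and Gpr19 had log2 ratios of 0.23, -0.11 and -0.19.

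For 6 of the 37 genes the tables split the level over several RefSeq transcripts. In Gpr19 the split differed sharply while the sum did not. The 1581-base transcript held 58.8% of the Gpr19 level in the Zeb2 cKO library and 0.254% in the control library, whereas the 1620-base transcript was listed near 0 in the Zeb2 cKO library and held 79.3% in the control library. The sums were 5.47 FPKM in Zeb2 cKO and 6.38 FPKM in control, on about 226 reads in Zeb2 cKO and 387 reads in control. The tables give no error for this split, and counting intervals do not cover it. In Gpr137 the 1433-base transcript held 43.9% in Zeb2 cKO and 30.3% in control. In Gpr146 the 4145-base transcript held 18.9% in Zeb2 cKO and 0.00132% in control.

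**Figure D3:**
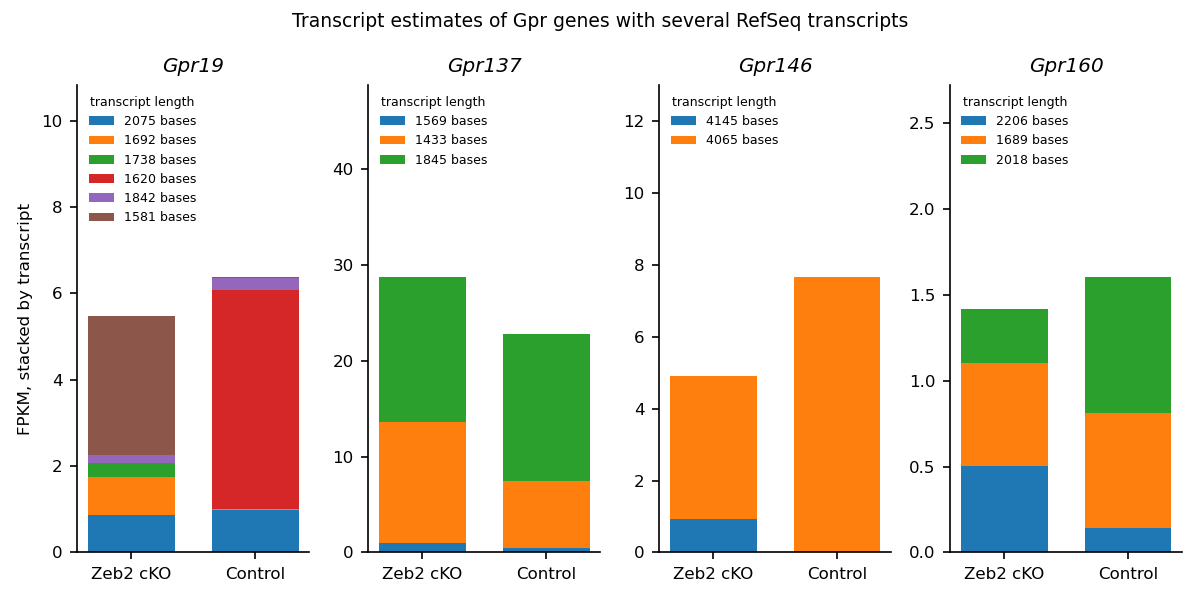
FPKM stacked by transcript, Zeb2 cKO left and control right, for Gpr19, Gpr137, Gpr146 and Gpr160 (transcripts at 0.05 FPKM or more in either library, named by length). The dominant transcript of Gpr19 differs between the libraries while the totals are 5.47 FPKM in Zeb2 cKO and 6.38 FPKM in control.

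The other 59 Gpr genes stayed below 1 FPKM in both libraries. The genes just inside the limit were Gpr17 (0.488 FPKM in Zeb2 cKO and 1.06 FPKM in control) and Gpr183. Those just outside it were Gpr64, an adhesion receptor, at 0.939 FPKM in Zeb2 cKO and 0.516 FPKM in control, and Gpr83, at 0.882 FPKM in Zeb2 cKO and 0.0877 FPKM in control. Of the 59, 8 reached 0.5 FPKM in either library and 24 rested on 3 estimated reads or fewer in each. Under 1 read was seen in both libraries for 5 of them, Gpr6, Gpr33, Gpr119, Gpr139 and Gpr142. A count of 0 allows up to 3 reads, which at the lengths of the 59 genes is at most 0.128 FPKM in the Zeb2 cKO library, for counting error only. Gpr143, a receptor of melanosomes, rested on about 1 read in each library.

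Most partners inside the cell were within 2-fold. Of all genes, 8.66% were 2-fold or more higher and 6.28% lower. Of 12 measured G protein alpha subunits 1 was 2-fold or more higher and 1 lower, with a median log2 ratio of 0.14 (-0.07 after rescaling). Gna14, of the Gq class, was at 6.44 FPKM in Zeb2 cKO and 0.732 FPKM in control (8.79-fold higher). Gnai1, an inhibitory subunit, was at 19.3 FPKM in Zeb2 cKO and 68.2 FPKM in control (3.54-fold lower). Among 13 beta and gamma subunits 1 was higher, Gngt2 (14.0 FPKM in Zeb2 cKO and 6.03 FPKM in control), and 1 lower, Gng2 (31.0 FPKM in Zeb2 cKO and 88.3 FPKM in control), with a median of 0.15 (-0.07 after rescaling). Gngt2 was at 0.89 after rescaling, short of 2-fold. Of 7 arrestins and receptor kinases Arrb1 alone was 2-fold apart, at a log2 ratio of 1.01, followed by Grk4 at 0.70, with a median of 0.31. After rescaling Arrb1 was at 0.80, short of 2-fold, and the median was 0.10.

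In the cyclic AMP list, 3 of 29 measured genes were 2-fold or more higher and 1 lower, against 8.66% and 6.28% of all genes. The median log2 ratio was 0.31, and 0.13 after rescaling, which left each of these 4 genes past 2-fold. Pde4d, a phosphodiesterase that degrades cyclic AMP, was at 13.2 FPKM in Zeb2 cKO and 3.51 FPKM in control (3.77-fold higher). Adcy7, an adenylyl cyclase, was at 12.1 FPKM in Zeb2 cKO and 3.80 FPKM in control (3.17-fold higher). The remaining genes past 2-fold were the cyclases Adcy3, with a log2 ratio of 1.22, and Adcy1, with -1.27. The 11 measured RGS proteins, which switch G proteins off, had a median of 0.45. Of them 3 were higher and 0 lower, against 8.66% and 6.28% of all genes. These were Rgs6 (log2 ratio 1.14), Rgs16 (1.05) and Rgs5 (1.03), which is also a pericyte marker. After rescaling they were at 0.99, 0.86 and 0.81, all short of 2-fold, and the median was 0.25.

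**Figure D4:**
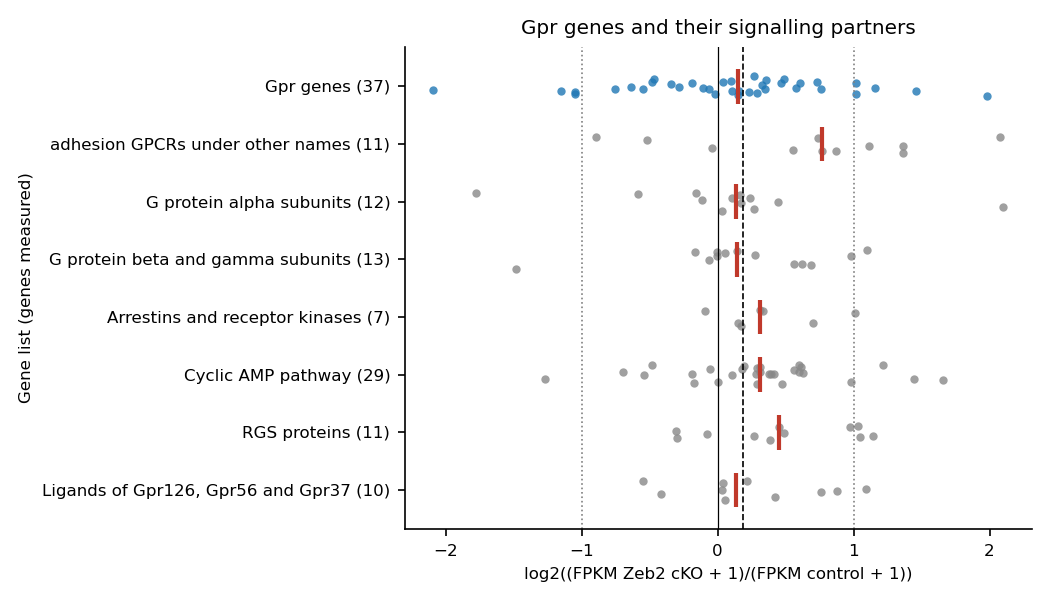
Log2 ratio of Zeb2 cKO over control (FPKM + 1 in each) for measured members of each list, 1 point a gene, with a red bar at the median, dotted lines at 2-fold and a dashed line at the median of all genes. Gpr genes have a median of 0.15, and adhesion receptors under other names have 0.77.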

How the data were processed

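RNA of pooled sciatic nerves was sequenced in 2 samples per group per the labels, and 1 table of each group was used here. The descriptions of both samples in a group name the same table, so it was assigned to the group and not to a numbered sample. The other library of each group was not analysed here. CASAVA, TopHat, Cufflinks and Cuffdiff and the build mm9 are named, without versions, in the submitters' processing notes. The FPKM values and the coverage signal (mean read depth per base) were made by the authors, per the file headers. Rows of both tables were joined by accession, locus and length, 295 rows without status OK in both were left out (0 of 122 Gpr rows), and FPKM was summed per symbol. Read numbers were estimated from coverage times length divided by 52.4 bases, the median of 464 values between 35 and 65 bases in genes with 1 transcript above 2000 bases, taken as 1 read. Intervals are Clopper-Pearson on these reads. Coverage per FPKM was 1.2753 in Zeb2 cKO and 1.8724 in control. Where a gene has several transcripts, its interval rests on summed reads and not on summed FPKM.

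Members and lists were chosen with earlier results of these data known. Named were Gpr genes at 1 FPKM or more in either library, the neighbours of that limit, Zeb2, known ligands, and the 2 largest absolute ratios of each pathway list; others were named after their values were seen, where a count was 5 or fewer or as a relative or overlapping gene. Of 96 Gpr symbols 94 matched RefSeq (GRCm38.p6) by accession. Promoter orientation was checked against GENCODE M21 transcripts. Code was tested on simulated reads. Python 3.11.15, numpy 2.4.6, pandas 2.3.3 and scipy 1.17.1 were used. Fold changes on the pseudocount scale (1 FPKM) understate those of low genes. No strand was used. The summed result of the Schwann cell lineage list is not reported here.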

Additional observations from a re-analysis of the deposited data

How the results depend on the processing

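With a threshold of 1.5-fold, 8 of 37 Gpr genes were higher and 6 lower, against 20.1% (2669) of all genes higher and 1327 of 13274 lower, and 3 adhesion receptors and 34 pathway genes were apart. At 3-fold 1 Gpr gene was higher (Gpr85) and 1 lower (Gpr137b), against 3.02% (401) and 3.44% (457) of all genes. Apart at 3-fold were 0 adhesion receptors and 4 pathway genes. A pseudocount of 5 FPKM left 0 Gpr genes higher and 1 lower, against 3.59% (477) and 3.99% (529) of all genes. It left 0 adhesion receptors (median 0.41) and 4 pathway genes apart. With 5 FPKM required in either library 22 Gpr genes remained, 3 of them higher and 2 lower, against 9.24% and 7.08% of all genes. Rescaling to the median gene gave 2 higher and 4 lower Gpr genes, against 6.02% and 7.56% of all genes, and a Gpr median of -0.0546. It left 0 adhesion receptors apart with a median of 0.38, and 11 pathway genes, against 17 as deposited. Rescaling to an equal sum without the listed muscle and myelin genes gave 3 higher and 4 lower Gpr genes. The shares of all genes were then 7.31% and 6.81%, and 0 adhesion receptors were apart, with a median of 0.51. Without a filter the adhesion median was 0.16. A pseudocount of 0.1 added Gpr63, and the top transcript in place of the sum added Gpr19, to the lower genes. Smaller counts follow from a stricter threshold or filter or a larger pseudocount by construction, and larger counts from the reverse. Rescaling divides the Zeb2 cKO values by 1.16 or 1.07, which lowers the ratios, so fewer higher Gpr genes follow by construction as well. The cause of the other changes was not tested. Of 222 single-gene ratios recomputed, 57 left their counting interval. Those recomputed with rows of every status could not change, since every Gpr row had status OK. None of the settings could turn the direction of a gene past 2-fold, so their direction was not tested. No paired analysis was possible because a group has a single library here, which also leaves no replicate to drop. Left out of the count over all genes, small RNA symbols or muscle and myelin genes changed it by less than 1.5 times, and summing both Gpr137b copies gave 3 lower Gpr genes. The last 3 were chosen after the data were examined. Counting intervals were wide for genes near 1 FPKM, and the spread between animals is unknown throughout.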
